A study of Mus musculus with 24 samples.

Results

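The genes described here are 10 genes of the MHC class I antigen processing pathway: Tap1, Tap2, Tapbp, B2m, H2-K1, H2-D1, Psmb8, Psmb9, Psmb10 and Nlrc5. They were chosen by symbol from a table of 25239 mouse genes, and all 10 were found there and passed the filter on low values that left 14104 genes for testing. RNA was sequenced from cell lines of mouse small cell lung cancer, a neuroendocrine lung tumor, in which p53 could be switched back on. The lines came from tumors with floxed Rb1 and Rbl2, a Trp53 XTR allele on both copies and a tamoxifen-activated FlpO-ER recombinase at Rosa26, started by adenoviral Cre under the CMV promoter. Cre flips a gene trap in the XTR allele, which turns p53 off, and FlpO, activated by 4-hydroxytamoxifen (4-OHT), removes the trap and turns p53 back on. Type D lines (4711-1, 4711-18 and 4716-11, called lines 1, 2 and 3) die after restoration, whereas Type V lines (4711-11, 4716-10 and 4716-14, likewise lines 1, 2 and 3) stay viable. Each line was sampled once in each of 4 arms at 72 h. These were vehicle (Control), cyclosporin A (Control + CsA), 4-OHT (Restored) and 4-OHT with cyclosporin A (Restored + CsA), which gives 24 libraries in 8 groups of 3 lines. Cyclosporin A binds cyclophilins. All lines share the Rb1 and Rbl2 alleles, and each group holds 3 separate lines, so the spread in a group is that between lines.

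Cells show fragments of their own proteins on MHC class I molecules, where CD8 T cells can read them. The proteasome cuts proteins into peptides, and its inducible catalytic subunits Psmb8, Psmb9 and Psmb10 replace the constitutive Psmb5, Psmb6 and Psmb7 in the immunoproteasome. The transporter TAP, a heterodimer of Tap1 and Tap2, carries peptides into the endoplasmic reticulum, where tapasin (Tapbp) bridges it to empty class I molecules made of a heavy chain (H2-K1 or H2-D1) and the light chain B2m. Nlrc5 is the transactivator of class I genes and acts with the RFX, CREB and NF-Y factors at their promoters. Low class I expression is a known trait of small cell lung cancer, and Tap1 is a known p53 target gene.

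The genes lie close to each other. In the GENCODE M21 annotation of build GRCm38, 7 of the 10 were on chromosome 17, and Psmb9, Tap1, Psmb8 and Tap2 followed each other within 34.3 kb there. Psmb9 (chr17:34181987-34187764, minus strand) and Tap1 (chr17:34187553-34197225, plus strand) point away from each other, and the space between their RefSeq starts is shown first because both genes rose on restoration. Stretches before H2-K1, H2-D1 and B2m follow as the class I promoters for comparison. All are RefSeq promoter sequence on GRCm38.p6, 5′ to 3′ on the strand of the named gene, and capitals mark the motifs searched, on either strand.
Tap1 to Psmb9 interval, chr17:34187331-34187555, plus strand: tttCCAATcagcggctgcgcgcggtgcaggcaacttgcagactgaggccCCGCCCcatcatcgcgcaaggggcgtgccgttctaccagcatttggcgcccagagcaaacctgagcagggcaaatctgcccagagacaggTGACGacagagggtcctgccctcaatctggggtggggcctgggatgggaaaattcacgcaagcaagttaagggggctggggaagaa
H2-K1, chr17:34000348-34000462, minus strand: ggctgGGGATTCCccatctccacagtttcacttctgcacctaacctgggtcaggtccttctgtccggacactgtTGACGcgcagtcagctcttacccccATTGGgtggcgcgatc
H2-D1, chr17:35262919-35263033, plus strand: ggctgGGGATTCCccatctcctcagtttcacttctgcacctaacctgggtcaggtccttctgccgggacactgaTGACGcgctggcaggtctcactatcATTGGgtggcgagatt
B2m, chr2:122147542-122147646, plus strand: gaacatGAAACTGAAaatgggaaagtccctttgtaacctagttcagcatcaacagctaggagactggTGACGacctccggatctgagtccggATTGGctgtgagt

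Of the 10 genes, 8 had a promoter window in the RefSeq table; Tap2 and Nlrc5 had none. The CRE core TGACG was in 5 of the 8 windows (B2m, H2-D1, H2-K1, Psmb9 and Tap1) and in 20.8% of the 32851 mouse promoter windows, all running from 250 bases before to 50 after a start. CCAAT was in 6 of the 8 and in 37.4% of all windows. The NF-kB core GGGATTCC was in H2-K1 and H2-D1 and in 1.06% of all windows, and the GC box GGGCGG was in Psmb9, Tap1 and Tapbp and in 35.7% of all. The interferon response core GAAANNGAA was in B2m and in 8.56% of all windows. The decamer of the p53 binding element was in none of the 8 windows and in 8.36% of all, which says only that those letters are not in these windows. The shown H2-K1 and H2-D1 stretches were identical at 102 of 115 positions (88.7%), whereas the interval between Tap1 and Psmb9 is 1 sequence read by both genes, so their shared motifs are not separate matches. None of these motifs overlaps another by its letters in the sequences shown.

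The values are TPM (transcript abundance scaled for transcript length and summing to the same total in every library), so the read depth behind a value is unknown and no counting interval can be given. A library held between 11853 and 12651 genes at a TPM of at least 1. Trp53 lay between 10.5 and 15.3 TPM in the 12 libraries without 4-OHT and between 181 and 253 TPM in the 12 with it, so the labels of the arms fit the targeted gene. The p53 targets Cdkn1a and Mdm2 rose by 4.17 and 4.37 (log2) in Type D and by 4.80 and 3.36 in Type V. Of the neuroendocrine markers, Chga was listed at 0 in every library, and Calca and Neurod1 stayed under 1 TPM. Among immune markers, Cd3e and Tyrobp were listed at 0 in all libraries and Ptprc stayed under 1 TPM, whereas Cd68 was measured and rose on restoration in both types. Lyz2, a myeloid marker, was called higher in Type D in Control and in Control + CsA, by 1.04 both times, at no more than 1.68 TPM in any Type D library and 0.467 TPM in any Type V library. The 10 immune markers summed to 7.23 to 57.0 TPM in Type D and 8.01 to 32.8 TPM in Type V. The defining fibroblast genes differed by type: Dcn did not exceed 0.106 TPM in Type D and lay between 3.52 and 71.9 TPM in Type V, and the 4 fibroblast markers summed to 0.216 to 1.89 TPM in Type D and 4.76 to 432 TPM in Type V, with Lum at 0 in Type D and under 1 TPM in Type V. Markers that differ by type do so between the same lines as every comparison of the types given next, and their part in those comparisons was not tested. In a bulk sample fewer cells of a kind and less RNA per cell cannot be told apart.

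Differences were tested by limma on log2(TPM + 1), with a gene called when its Benjamini-Hochberg adjusted p over all 14104 genes was below 0.05 and its change was at least 1 on the log2 scale. This scale understates the change of genes near 0. A first question is how the 2 kinds of line differed before p53 was restored. In Control, Type D lines had lower levels of Tap1, Tap2, B2m, Psmb8, Psmb9 and Psmb10 and a higher level of H2-D1 than Type V lines. Thus 6 of the 10 genes were called lower in Type D, against 4.41% of all genes tested, and 1 was called higher, against 4.42%. The median difference of the 10 genes was -1.41, and that of all genes tested was -0.12. Psmb8 passed the filter on low values through its levels in Type V alone, and Psmb9 through Type V and the restored Type D lines, so their part in this count is in some measure set by the filter.

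**Figure D1:**
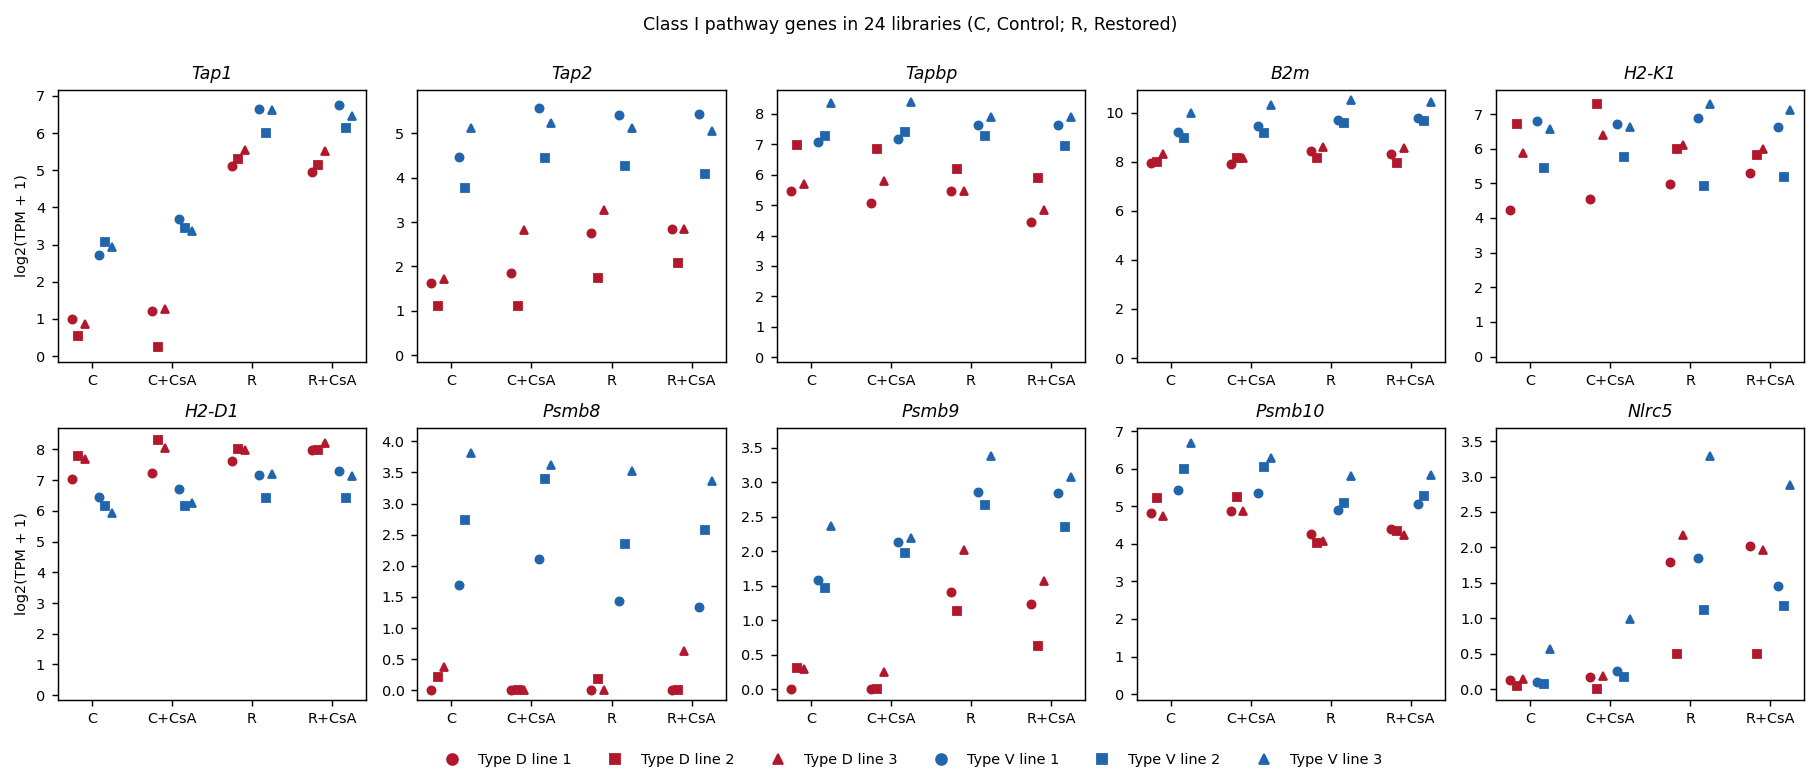
Level of each of the 10 genes in log2(TPM + 1) in the 24 libraries. Each point is 1 line in 1 arm (C, Control; R, Restored), with Type D in red and Type V in blue. Tap1 is at or below 1.42 TPM in all Type D libraries without 4-OHT and between 29.8 and 46.0 TPM in those with it; Psmb8 does not exceed 0.551 TPM in any Type D library.

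Among the 10 genes Tap2 had the most negative difference in Control, and its partner Tap1 differed as well. Tap1 was at 0.987, 0.449 and 0.837 TPM in Type D lines 1 to 3, and at 5.60, 7.38 and 6.65 TPM in Type V lines 1 to 3. Every Type D value lay below every Type V value, and the difference was -2.11 ± 0.26 (log2, SE; adjusted p = 2.33e-05). Tap2 was at 2.07, 1.16 and 2.30 TPM in Type D and at 21.0, 12.5 and 33.7 TPM in Type V, again without overlap. Its difference was -2.96 ± 0.50 (adjusted p = 0.000513), and the ratio of the mean TPM was 12.2-fold in favor of Type V. Tapbp, the bridge to the empty class I molecule, was at 43.6, 125 and 50.7 TPM in Type D and at 134, 152 and 329 TPM in Type V. Here Type D line 2 came close to the lowest Type V line. The difference of -1.52 ± 0.50 missed the call with an adjusted p of 0.0507 and passed it with cell line as a block (adjusted p = 0.0216), with a pseudocount of 0.1, at a filter of 5 TPM, under quantile normalization and without Type D line 2 (values from -1.98 to -1.47).

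B2m, which every class I molecule needs, had the highest TPM of the 10 genes in 22 of the 24 libraries, H2-D1 being higher in the other 2. In Control it was at 247, 251 and 320 TPM in Type D and at 585, 497 and 1008 TPM in Type V, and the difference was -1.29 ± 0.31 (adjusted p = 0.00847). It lost its call when Type D line 1 or Type V line 3 was left out, with differences of -1.23 and -0.99. The heavy chains went differently. H2-D1 was at 130, 218 and 205 TPM in Type D and at 86.6, 70.2 and 60.5 TPM in Type V, so that all Type D lines were above all Type V lines, and the difference was 1.31 ± 0.29 (adjusted p = 0.00488). H2-K1 was at 17.9, 103 and 57.8 TPM in Type D and at 110, 42.4 and 94.9 TPM in Type V. These values overlap, and the difference of -0.66 had a 95% interval from -2.20 to 0.87. Heavy chain genes are highly polymorphic and have near copies: 3.1% of the 75-base windows of H2-K1 transcripts and 5.4% of those of H2-D1 also occurred in another gene of the reference, mostly of the H2-Q and H2-T families, so levels of both are less certain than those of Tap1, Tap2 or B2m, whose windows were all unique. The mice were of mixed strain background, and which H2 alleles each line carries is not given in the sources used here. The part of these alleles in the difference was not tested.

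Of the immunoproteasome subunits, Psmb8 and Psmb9 were low in both types. Psmb8, a chymotrypsin-like subunit, was listed at 0 in Type D line 1 and at 0.157 and 0.293 TPM in lines 2 and 3, but at 2.22, 5.69 and 13.0 TPM in Type V. The difference was -2.55 ± 0.56 (adjusted p = 0.00467). Psmb9 was listed at 0 in Type D line 1 and at 0.239 and 0.223 TPM in the others, and at 1.99, 1.77 and 4.13 TPM in Type V, a difference of -1.60 ± 0.30 (adjusted p = 0.00144). Neither gene overlapped between the types. Psmb10 was higher in both, at 27.2, 36.6 and 25.6 TPM in Type D and at 42.3, 62.6 and 101 TPM in Type V. Its difference of -1.11 ± 0.30 (adjusted p = 0.0178) was the smallest called, and was lost under both other scalings of the libraries, when these groups were fitted alone, and when Type D line 1, Type D line 3 or Type V line 3 was left out, with values from -1.11 to -0.79 over the settings in which it was lost. Nlrc5, the transactivator, was below 0.5 TPM in all 6 Control libraries, with a difference of -0.14 and a 95% interval from -1.28 to 1.00.

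Counted by values alone, 7 of the 10 genes were lower in all Type D lines than in all Type V lines in Control, against 19.5% of the genes tested, and 1 was higher in all, against 11.9%. The numbers were 7 and 1 in each of the other 3 arms too, with H2-K1 and Nlrc5 overlapping in each. With cyclosporin A alone, 6 genes were called lower in Type D (5.07% of all genes) and 1 higher (4.81%). In this arm Tapbp was called at -1.76 ± 0.50 (adjusted p = 0.0218), a call lost in a fit to these groups alone and without Type D line 1, Type D line 3 or Type V line 3 (values from -1.76 to -1.34 over all settings that lost it), and Psmb10 at -0.90 was not. Psmb10 was called at -1.17 without Type V line 1. The arms share the same lines, so they are not independent sets of samples.

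After restoration the types still differed. In Restored, 7 genes were called lower in Type D (4.99% of all genes) and none higher (4.45%), and in Restored + CsA 7 were called lower (4.06%) and 1 higher (3.76%). The gene missing from the higher calls in Restored was H2-D1, at 0.95 ± 0.29 with an adjusted p of 0.0338; its change lay under the size required and passed it without Type D line 1 or Type V line 1 (1.07 both times). With cyclosporin A, H2-D1 was called at 1.10, and lost its call without Type D line 3 or Type V line 2 (1.03 and 0.84). Tap1 was at -1.09 ± 0.26 in Restored (adjusted p = 0.00911), about a log2 unit less than its gap in Control. With cell line as a block it was not called (adjusted p = 0.0576), nor with a pseudocount of 0.1 or without Type D line 1, Type V line 1 or Type V line 3 (values from -1.10 to -0.98 over these). Under cyclosporin A Tap1 was called at -1.25 and lost its call with a pseudocount of 0.1. Tap2 at -2.35 (adjusted p = 0.00374) and B2m at -1.54 (adjusted p = 0.00244) were called in Restored in each setting tried. Tapbp at -1.90 lost its call without Type D line 1 or line 3, Psmb8 at -2.38 lost it without Type D line 1, and Psmb10 at -1.15 lost it in a fit to these groups, without any 1 Type D line or without Type V line 3. Psmb9 at -1.45 lost its call in a fit to the groups compared. In Restored + CsA, Psmb8 at -2.21 was not called in such a fit or without any 1 of the Type D lines, and Psmb10 at -1.07 was not called without any 1 of them or without Type V line 3.

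**Figure D2:**
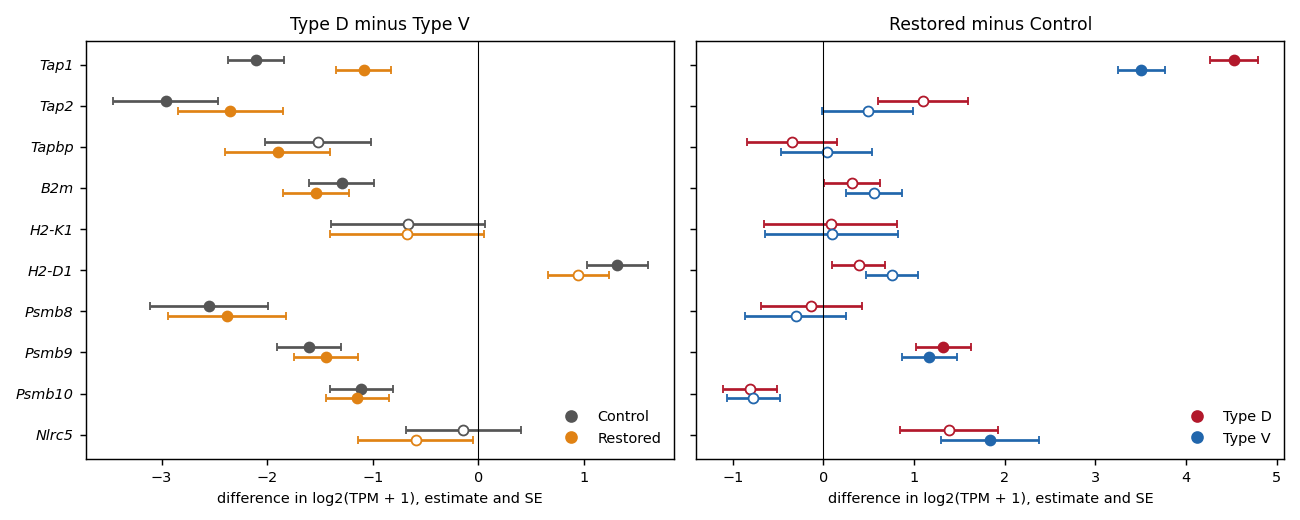
Differences in log2(TPM + 1) from limma, with bars for the SE, between the types (left) and between Restored and Control within a type (right), 3 lines a group. Filled points are called and open points are not; Tap1 stands out on the right at 4.53 in Type D and 3.51 in Type V, whereas H2-D1 is the 1 gene to the right of 0 on the left.

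On the log2(TPM + 1) scale Tap1 rose more than each of the other 9 genes in all 6 lines when p53 was restored. In Type D lines 1 to 3 Tap1 reached 33.9, 38.6 and 46.0 TPM from the Control values given above. This was a rise of 4.53 ± 0.26 (log2, SE; adjusted p = 2.08e-09), and the ratio of mean TPM was 52.1-fold. Type V lines 1 to 3 reached 98.3, 63.3 and 96.5 TPM, a rise of 3.51 ± 0.26 (adjusted p = 5.04e-08) and a ratio of 13.2-fold. The ratio of mean TPM of Nlrc5, which started below 0.5 TPM, was larger than that of Tap1 in Type V (20.8-fold) and smaller in Type D (28.3-fold). For Tap1 the restored and the Control libraries did not overlap in either type, nor did the restored Type D and restored Type V libraries. The difference between the 2 rises, tested as an interaction, was 1.02 in favor of Type D with a 95% interval from 0.24 to 1.80, an unadjusted p of 0.0129 and an adjusted p of 1, and so was not called.

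Its neighbor Psmb9 rose as well, from a much lower level. In Type D it went to 1.66, 1.19 and 3.06 TPM, a rise of 1.32 ± 0.30 (adjusted p = 0.00637), and in Type V to 6.24, 5.35 and 9.43 TPM, a rise of 1.17 ± 0.30 (adjusted p = 0.0176). All 6 lines went up. The Type D call was lost without Type D line 1 or line 3 (1.28 and 1.12), and the Type V call with a pseudocount of 0.1, under quantile normalization, in a fit to these groups alone, and without Type V line 1 or line 2 (values from 0.97 to 1.44). The annotated Psmb9 and Tap1 models overlap by 212 bases on opposite strands. The library kit keeps strand, but whether the counting used it is not given in the sources used here, so reads of Tap1 in that overlap could add to Psmb9, and this was not tested.

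Nlrc5 was near 0 without 4-OHT, at no more than 0.990 TPM in those 12 libraries, so it passed the filter on low values only through the restored libraries where it is high, and its calls and its part in the counts are in some measure set by the filter. It reached 2.45, 0.416 and 3.52 TPM in restored Type D lines and 2.59, 1.17 and 8.73 TPM in restored Type V lines, above its own Control value in all 6 lines. In Type V the rise of 1.84 ± 0.54 was called (adjusted p = 0.0360), and in Type D the rise of 1.38 ± 0.54 was not (adjusted p = 0.109). With cell line as a block both were called, with adjusted p of 0.000345 for Type V and 0.00262 for Type D. Without the block the Type V call of Nlrc5 was lost when Type D line 1, Type D line 3, Type V line 1 or Type V line 3 was left out or when these groups were fitted alone (values from 1.40 to 1.88). Its Type D rise was called without Type V line 3 (1.38) and with a pseudocount of 0.1 (3.29). In all, 2 genes were called higher in Type D (4.49% of all genes) and 3 in Type V (3.39%), and none was called lower in either (2.44% and 1.9%). With the block 4 were called higher in Type D, Tap2 (1.10, adjusted p = 0.000594) and Nlrc5 being added to Tap1 and Psmb9, and 3 in Type V.

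The other 7 genes gave smaller changes. Tap2 went to 5.75, 2.31 and 8.63 TPM in Type D and to 41.5, 18.2 and 33.8 TPM in Type V, a change of 1.10 (adjusted p = 0.173) and 0.49 (adjusted p = 0.665). Each Type D line was above its own Control. B2m went to 346, 284 and 389 TPM in Type D and to 843, 763 and 1466 TPM in Type V, a change of 0.32 and 0.56 that was not called in either type, although each of the 6 lines was above its own Control. H2-D1 went to 198, 258 and 255 TPM in Type D and to 144, 85.5 and 147 TPM in Type V. It too was above Control in all 6 lines, by 0.39 and 0.76 on average, without a call.

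Psmb10 went the other way. It was at 18.1, 15.1 and 15.9 TPM in restored Type D lines and at 29.1, 32.8 and 54.6 TPM in restored Type V lines, below its own Control in each of the 6. The changes of -0.81 (adjusted p = 0.0838) and -0.77 (adjusted p = 0.115) were not called. Psmb8 in restored Type D was listed at 0 in lines 1 and 3 and at 0.131 TPM in line 2, and in restored Type V it was at 1.71, 4.11 and 10.5 TPM, each slightly under its Control. Tapbp in restored lines was at 43.5, 71.2 and 42.9 TPM in Type D and at 199, 153 and 237 TPM in Type V, and H2-K1 at 30.4, 62.5 and 67.7 TPM and at 117, 29.2 and 156 TPM. For Tapbp and H2-K1 the lines of a type did not all move the same way, apart from Tapbp in Type D, where all 3 were lower, line 1 by less than 0.01 on the log2 scale. The median change of the 10 genes was 0.35 in Type D and 0.52 in Type V, and that of all genes tested was 0.07 and 0.05.

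With cyclosporin A in both arms, restoration gave calls for the same 2 genes in Type D and for fewer genes in Type V. The share of all genes called higher in Type V was smaller too, at 2.84% against 3.39% without cyclosporin A. Whether cyclosporin A changed the response to restoration within a type was not tested. In Type D 2 genes were called higher (3.53% of all genes) and none lower (1.88%), namely Tap1 at 4.28 ± 0.26 (adjusted p = 5.63e-09) and Psmb9 at 1.06 ± 0.30 (adjusted p = 0.0336). The Psmb9 call was lost without any 1 Type D line, without Type V line 1, and at a filter of 5 TPM (values from 0.93 to 1.27). In Type V 1 gene was called higher (2.84%) and none lower (1.77%), namely Tap1 at 2.95 ± 0.26 (adjusted p = 5.16e-07). With cell line as a block Nlrc5 was added in both types, at 1.38 (adjusted p = 0.00304) in Type D and 1.36 (adjusted p = 0.00394) in Type V; a pseudocount of 0.1 also added it in Type D (3.29). Tap1 stood at 29.8, 34.4 and 44.4 TPM in Restored + CsA Type D lines and at 107, 69.2 and 86.3 TPM in Type V lines, which overlaps Restored in both types.

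Whether cyclosporin A itself changed the genes was asked in cells without and with restored p53. Given alone, it changed none of the 10 genes past the call in Type D or Type V, where limma called 0% and 0% of all genes. At an unadjusted p under 0.05 Type D had 0 of the 10 genes and Type V had 1. The 1 gene was Tap1, which went from the Type V Control values to 11.96, 9.82 and 9.22 TPM, higher in all 3 lines by 0.59 on average (95% interval 0.04 to 1.14, unadjusted p = 0.0377, adjusted p = 1). Added to restored cells, cyclosporin A changed none of the 10, with 0.0142% of all genes called in Type D lines and 0% in Type V lines, and 0 had an unadjusted p under 0.05 in either. The member changes ran from -0.65 (Tapbp) to 0.20 (Psmb10) in Type D and from -0.25 (Nlrc5) to 0.13 (Psmb10) in Type V. Tapbp in Restored + CsA Type D lines was at 20.5, 58.1 and 27.8 TPM, below Restored in all 3 lines, with a 95% interval of the change from -1.69 to 0.40. None of the 10 genes was called for a difference of the restoration response between types (0.0284% of all genes, 1 of the 10 at an unadjusted p under 0.05) or for a difference of the cyclosporin A effect in restored cells (0%, 0 of the 10). These intervals are wide, and a missed call does not show that the arms act alike.

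**Figure D3:**
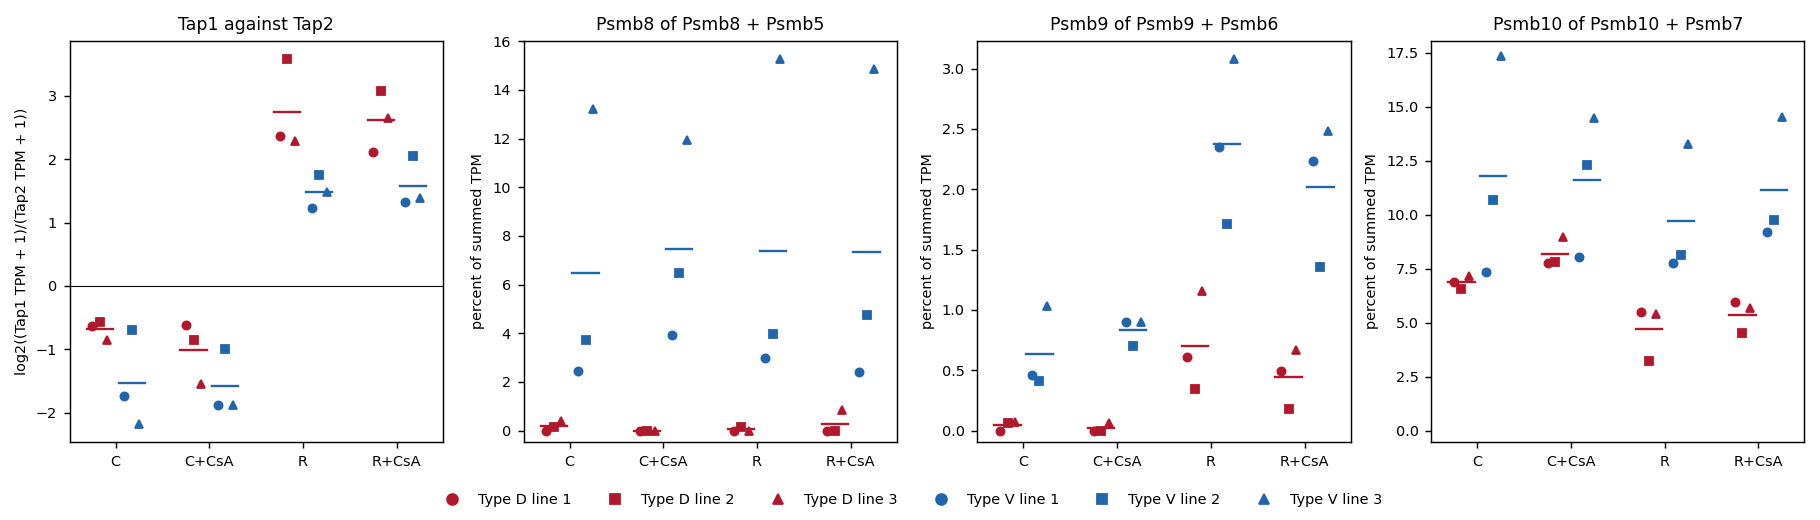
Balance of Tap1 against Tap2 (left) and the share of each inducible subunit in its pair with the constitutive one, in percent of summed TPM, for each line (points) with the mean of 3 lines (bars) in Control (C), Restored (R) and with CsA. The balance moves from below 0 to above 0 in all 6 lines on restoration, and Psmb9 stays at or under 3.08% of its pair.

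TAP needs both of its chains, so the level of Tap1 was set against that of Tap2 as log2 of (Tap1 + 1)/(Tap2 + 1). In Control it was -0.63, -0.57 and -0.85 in Type D lines 1 to 3 and -1.74, -0.69 and -2.18 in Type V lines, so Tap2 exceeded Tap1 in all 6. In Restored it was 2.37, 3.58 and 2.29 in Type D and 1.23, 1.74 and 1.48 in Type V, so Tap1 exceeded Tap2 in all 6. The mean change was 3.43 ± 0.63 (SD, n = 3) in Type D and 3.02 ± 0.62 (SD, n = 3) in Type V. An exact two-sided sign-flip permutation test gave p = 0.25 in each type, the smallest that 3 lines allow. Restored Type D lines lay above restored Type V lines by 1.26, with p = 0.1 in an exact two-sided permutation test, again the smallest possible with 3 lines against 3. The 2 changes differed by 0.41 (exact permutation p = 0.4).

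The share of an inducible subunit among the 2 subunits that compete for its place was small in most libraries. For Psmb9 against Psmb6 it was listed at 0%, 0.067% and 0.071% in Type D Control and at 0.464%, 0.409% and 1.03% in Type V Control. After restoration it was 0.609%, 0.344% and 1.16% in Type D and 2.35%, 1.71% and 3.08% in Type V, higher in all 6 lines. The gain was 0.658 ± 0.408 percentage points (SD, n = 3) in Type D and 1.74 ± 0.39 (SD, n = 3) in Type V, and these gains did not overlap (exact permutation p = 0.1, the smallest possible). Psmb8 against Psmb5 was at most 0.859% in any Type D library, and in Type V Control it was 2.44%, 3.73% and 13.2%, of which line 3 is far above the others. Psmb10 against Psmb7 fell in all 3 Type D lines, from a mean of 6.87% to 4.70% (exact sign-flip permutation p = 0.25), and in Type V it went from 11.8% to 9.72%, lower in 2 lines and higher in line 1. Since Psmb10 and Psmb7 were both lower after restoration, a share can stay while both levels move.

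**Figure D4:**
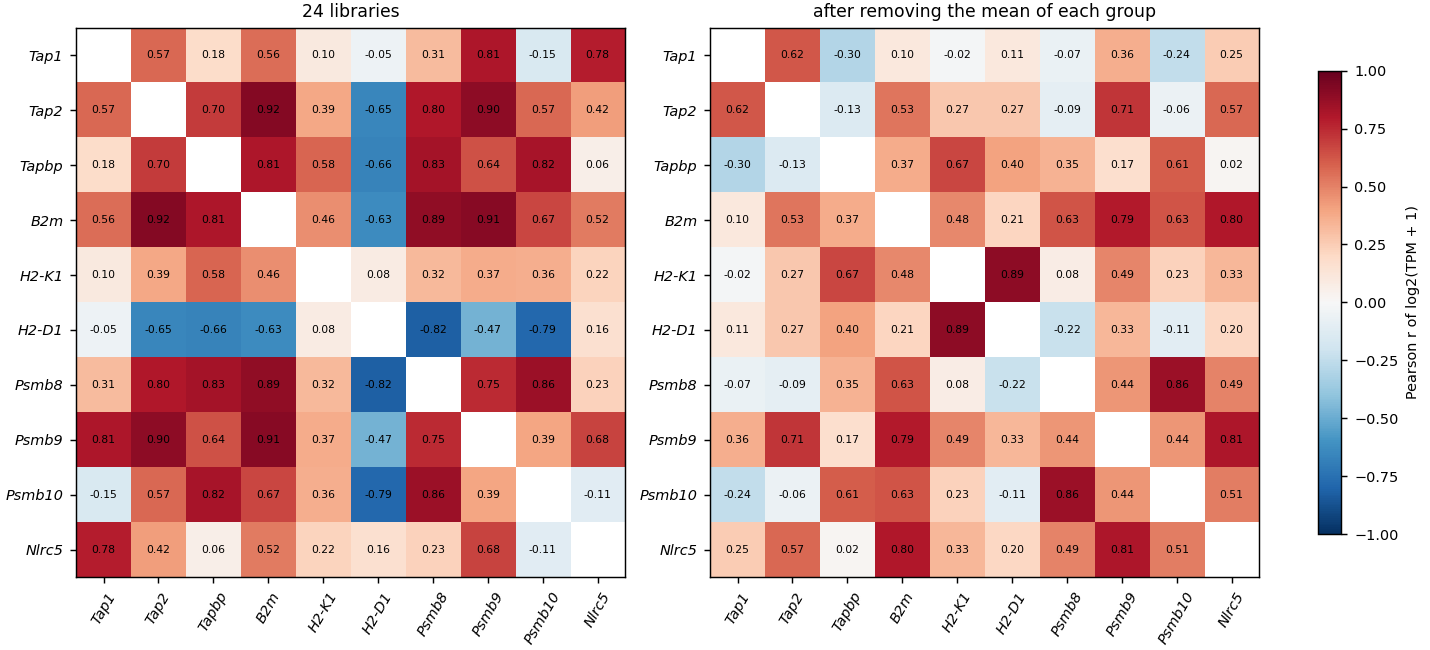
Pearson's r of log2(TPM + 1) between each pair of the 10 genes over 24 libraries (left) and after the mean of each group was removed (right). The closest pair is Tap2 with B2m at 0.92 on the left and H2-K1 with H2-D1 at 0.89 on the right, whereas H2-D1 runs against Psmb8 at -0.82 on the left.

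As a description, the genes were correlated with each other over the 24 libraries, which share lines and groups and so are not independent. The median r of the 45 pairs was 0.42, from -0.82 (H2-D1 with Psmb8) to 0.92 (Tap2 with B2m). Tap1 followed Psmb9 (0.81), Nlrc5 (0.78) and Tap2 (0.57). When the mean of each group was removed, leaving only differences between lines within a group, the median r was 0.35. The closest pairs were then H2-K1 with H2-D1 (0.89) and Psmb8 with Psmb10 (0.86), and H2-D1 with Psmb8 was at -0.22. Outside the set, the genes most like Tap1 over 24 libraries were Pitpnm2 (r = 0.971), Shisa4 (0.966) and Trafd1 (0.966). The genes most like Psmb8 were Pdgfrb (0.984), Wnt10a (0.964) and Vtcn1 (0.963), of which Pdgfrb, a receptor of mesenchymal cells, was at 6.87, 36.7 and 143 TPM in Type V Control and at most 0.032 TPM in Type D Control. H2-K1 was closest to Tmem165 (0.859), Bag6 (0.855) and Arhgef10l (0.842), and Nlrc5 to Ces2f (0.958), Col9a3 (0.916) and Sp9 (0.909).

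Other genes of the pathway were read from lists. Of all genes tested, 8.83% were called between the types in Control and 27.3% had an unadjusted p under 0.05. For restoration these shares were 6.93% and 25.3% in Type D, against 5.29% and 22.1% in Type V. Of 8 partners in peptide loading, among them the chaperones Calr and Canx, the disulfide isomerase Pdia3 and the trimming peptidase Erap1, none was called in Control between the types (2 at an unadjusted p under 0.05) or on restoration (1 in Type D, 2 in Type V at an unadjusted p under 0.05). Erap1 had the most negative difference between types in Control, -1.04 with an adjusted p of 0.103. Of 14 constitutive proteasome and activator genes none was called in these comparisons, although 7 had an unadjusted p under 0.05 on restoration in Type V and 5 did between types in Control. Restored minus Control gave these 14 a median of -0.17 for Type D and -0.41 for Type V.

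Among 26 genes that regulate class I expression, 1 was called between the types in Control, against 8.83% of all genes tested. It was Ifngr1, a chain of the interferon gamma receptor, at 255, 223 and 285 TPM in Type D and at 60.9, 72.4 and 80.0 TPM in Type V. It was higher in Type D by 1.83 (adjusted p = 4.22e-07), the opposite direction to Tap1, Tap2 and B2m. None of the 26 was called on restoration in either type, with 6 (Type D) and 7 (Type V) at an unadjusted p under 0.05. Of 18 other class I and class I-like genes only 9 were tested, and H2-M3, which presents formylated peptides, was called lower in Type D in all 4 arms, at -1.67 in Control (adjusted p = 0.0135). On restoration none of the 9 was called, and none had an unadjusted p under 0.05.

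Of 8 MHC class II genes 4 were tested. The class II chain H2-Aa was listed at 0 in all libraries and the class II transactivator Ciita was under 1 TPM, and Cd74, the invariant chain, was lower in Type D in Control by -2.98 (adjusted p = 0.0244). H2-DMa rose in Type V on restoration by 1.12 (adjusted p = 0.0133), the 1 class II gene called there. All 4 tested had an unadjusted limma p under 0.05 in that comparison, against 22.1% of all genes. Among them Cd74 had the most negative change, at -2.52, its mean going from 17.6 to 1.57 TPM, without a call. Of 11 genes for surface proteins, namely ligands that immune cells read beside class I and the receptor Fas, 8 were tested. H60b, a ligand of the activating receptor NKG2D, was at 21.0, 21.3 and 27.9 TPM in the Type D lines without treatment and at 0.505, 3.57 and 2.97 TPM in the Type V lines, a difference of 3.01 (adjusted p = 2.32e-05). On restoration Cd80, a costimulatory ligand, rose in both types, as Tap1 did, by 4.78 in Type D (adjusted p = 2.31e-09) and by 4.63 in Type V (adjusted p = 3.45e-09). The death receptor Fas, a known p53 target, rose in Type D by 3.53 (adjusted p = 0.0221). In Type V it was higher in all 3 lines, from 3.99, 130 and 36.8 TPM to 120, 467 and 173 TPM, by 2.88 on average (adjusted p = 0.0727), and the difference between the 2 changes was not called (adjusted p = 1).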

How the data were processed

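RNA was sequenced from 24 libraries of 6 cell lines. The authors deposited 1 table of TPM per gene and library. The study's methods name a stranded mRNA kit and single-end reads, and both kallisto and HISAT2; which of these made the table, the counting strand and the single build behind it are not given in the sources used here (the labels name mm10 and GRCm39). TPM keeps no depth, so the precision rests on the spread between libraries. The main fit had no term for cell line and pooled this spread over all 8 groups. It thus treated libraries of the same line as independent, although their consensus correlation was 0.7356 in the block fit between types. Its SE and p are therefore not those of 3 independent lines per group. Testing was limited to the 14104 of 25239 genes that reached a TPM of 1 in 3 or more libraries. limma 3.58.1 (R 4.3.3, with trend) was fitted on log2(TPM + 1) with 8 group terms over all libraries, and 14 comparisons were tested with Benjamini-Hochberg adjustment. Balances and shares were tested by exact permutation (scipy 1.17.1). The script was tested on simulated data. The labels give the cell line, so libraries pair by line: deviations from group means correlated at 0.599 to 0.929 over 36 pairs of libraries of the same line, against -0.675 to 0.0438 over 72 pairs of different lines of a type in different arms. Deviations from a group mean cancel within the group, which pushes r between different lines to negative values, so this contrast is partly set by the method. In the fits with a block, cell line was fixed within a type and random between types. Results were recomputed with the block, without a filter, with a filter of 5 TPM, with a pseudocount of 0.1, after median-ratio scaling or quantile normalization, from only the groups compared, and leaving out each line. The genes and lists were chosen with earlier results of these data known. Text names all 10 genes, up to 4 called genes a list, and the 3 genes closest to Tap1, Psmb8, H2-K1 and Nlrc5. Pdgfrb and Erap1 are described further because their values were seen.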

Additional observations from a re-analysis of the deposited data

Results flagged for a closer look

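The change of Tap2 on restoration under cyclosporin A had opposite signs in the 2 types. From Control + CsA to Restored + CsA all 3 Type D lines were higher, by 0.99, 0.97 and 0.04 on the log2 scale. All 3 Type V lines were lower, at -0.14, -0.35 and -0.16. The mean changes differed by 0.88. This difference was not tested, and neither change was called by limma (0.66 in Type D with an adjusted p of 0.499, and -0.22 in Type V with an adjusted p of 0.915). Without cyclosporin A, Tap2 was higher after restoration in all 6 lines, though in Type V line 3 by only 0.0067. Groups of 3 lines are too small to look for single outlying libraries.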

How the results depend on the processing

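Under the 7 settings other than lines left out, the number of genes called moved by over 1.5 times from the main count in these cases. With the replicate block by cell line it was 4 in place of 2 for Restored minus Control in Type D, and 2 in place of 1 for Restored + CsA minus Control + CsA in Type V. Fitting only the groups compared gave 1 in place of 3 for Restored minus Control in Type V and 1 in place of 2 for Restored + CsA minus Control + CsA in Type D, where Psmb9 was no longer among the genes tested. A filter of 5 TPM also gave 1 in place of 2 in the latter, where Psmb9 was tested and lost its call. With 1 line left out, the counts ran from 5 to 8 (main 7), 6 to 8 (7), 4 to 7 (7) and 5 to 8 (8) between types in Control, Control + CsA, Restored and Restored + CsA. They ran from 1 to 3 (main 2) and 1 to 3 (3) for restoration in Type D and Type V, and from 1 to 2 (2) and 1 to 1 (1) under cyclosporin A. The block changed no call other than those given with the results. Counts stayed at 0 for the cyclosporin A effects and both differences of effects. No called gene changed sign; in 54 of 479 tries a called gene lost its call.

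Genes not called changed sign near 0 when 1 line was left out. Between types H2-K1 ran from -1.21 to 0.019 in Control, and with cyclosporin A alone from -0.90 to 0.46. For its restoration it ran from -0.25 to 0.48 in Type D and from -0.22 to 0.40 in Type V, under cyclosporin A from -0.93 to 0.18 and from -0.34 to 0.20, and for the difference of responses from -0.34 to 0.39. Nlrc5 ran from -0.23 to 0.020 in Control, from -1.08 to 0.0060 in Restored and from -0.66 to 0.19 in Restored + CsA between types, and from -0.85 to 0.0077 for the difference of responses. Tapbp ran from -0.23 to 0.29 for restoration in Type V, and H2-D1 from -0.081 to 0.45 for restoration under cyclosporin A in Type D. For the difference of responses Psmb9 ran from -0.048 to 0.41 and Psmb10 from -0.16 to 0.17. Under quantile normalization and median-ratio scaling the restoration change of H2-K1 in Type D went to -0.013 and -0.018, and with a pseudocount of 0.1 the difference of responses of Psmb8 went to -0.33. The change of the TAP balance in Type D was 4.17 with a pseudocount of 0.1. The difference of the Psmb8 share responses was -0.19 points under quantile normalization (-1.05 as deposited), and the median r of the genes was 0.35 with group means removed. For each of these the cause was not tested.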
